A study of Mus musculus with 8 samples.

Results

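The 10 genes described here are the transcriptional arm of the Hippo pathway: the coactivators Yap1 and Wwtr1 (the gene of TAZ), the DNA-binding factors Tead1, Tead2, Tead3 and Tead4, and the target genes Ctgf, Cyr61, Ankrd1 and Amotl2. They were chosen by symbol, all 10 were found among the 23420 gene symbols of the deposited count files, and all 10 passed the filter on low counts that left 13316 genes to test. Total RNA was sequenced from embryonic mouse fibroblasts of a C57BL6/N background, all of which expressed the adenoviral oncoprotein E1A and the activated Ras HRasV12, so that no untransformed cells serve as a further reference. Wild-type cells gave 4 of the 8 libraries and Neat1-/- cells, called Neat1 null below, the other 4; Neat1-/- cells lack the long noncoding RNA of paraspeckles. How Neat1 was deleted, how the oncogenes were introduced, the age of the embryos and whether each library had its own embryo or culture are not given in the sources used here, so a p-value measures only how these libraries vary, which may be technical variation.

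In the Hippo pathway, the kinases MST and LATS phosphorylate YAP and TAZ, which are then held in the cytoplasm or degraded. When the kinases are inactive, as in spread or stretched cells, YAP and TAZ enter the nucleus, bind TEAD factors and activate genes such as Ctgf and Cyr61. Since the control acts mainly on the proteins, the mRNA of YAP and TAZ says little on their activity, whereas the mRNA of the targets is the usual readout in fibroblasts.

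The data in brief were these. None of the 10 genes passed the threshold between Neat1 null and wild-type libraries (0 of 10 at an adjusted p under 0.05 in edgeR, against 17.7% of all genes tested). At an unadjusted p under 0.05 the count was 1, Wwtr1 (36.0% of all genes), and DESeq2 also called 0 of the 10 (23.9% of all genes). With a correction for gene length and GC content the count was again 0 in edgeR, against 12.3% of all genes (4.68% lower and 7.63% higher in Neat1 null), with 0 at an unadjusted p under 0.05. The number of genes past the adjusted threshold depended on single libraries. It was 2356 with all 8 libraries, 18 or 11 when wild-type library 3 or 4 was left out, and 13 without Neat1 null library 3. At an unadjusted p under 0.05 in edgeR, 4789 of 13316 genes passed with all 8 libraries. In the same order, 3407 of 13372, 3342 of 13409 and 4226 of 13686 passed in the other 3 fits. Yap1 and Wwtr1 were lower in each Neat1 null library than in any wild-type library, at 0.69 and 0.56 of the wild-type level, without passing the test. Groups without overlap were thus found for 2 of the 10 genes (20%), against 22.6% of all genes tested. On the log2 scale the changes were -0.53 for Yap1 and -0.84 for Wwtr1. They became 0.16 and -0.50 once gene length and GC content were corrected for. The 4 targets had log2 fold changes above 0, from 0.24 to 1.05, but differed much more within each genotype than between them. Of 18 further YAP/TAZ target genes, 4 were called, all lower in Neat1 null libraries. This is 22.2%, against 17.7% of all genes called in either direction and 7.72% called lower. The count was 1 without wild-type library 3 or without wild-type library 4, and 0 without Neat1 null library 3.

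The promoters of the targets are shown because these genes are read as a group by the short element that TEAD factors recognise, the MCAT core GGAATG, which reads CATTCC on the opposite strand. RefSeq promoter sequences (GRCm38.p6) were matched for 7 of the 10 genes, without Ctgf, Tead1 and Tead4. The 250 bases before the transcription start are given 5′ to 3′ on the strand of the gene, with each match on either strand in capitals. The genomic windows follow the RefSeq start sites, which for Ankrd1 and Amotl2 lie inside the GENCODE gene spans given below, so that both windows overlap those spans. The window of Cyr61 is chr3:145649986-145650235 (minus strand), that of Ankrd1 chr19:36119845-36120094 (minus strand) and that of Amotl2 chr9:102717554-102717803 (plus strand).
Cyr61: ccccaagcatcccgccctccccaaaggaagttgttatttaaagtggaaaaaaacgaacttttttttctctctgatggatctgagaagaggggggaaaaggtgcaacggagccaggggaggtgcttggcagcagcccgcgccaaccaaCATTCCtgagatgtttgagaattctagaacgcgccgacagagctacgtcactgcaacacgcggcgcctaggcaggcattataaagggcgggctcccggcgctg
Ankrd1: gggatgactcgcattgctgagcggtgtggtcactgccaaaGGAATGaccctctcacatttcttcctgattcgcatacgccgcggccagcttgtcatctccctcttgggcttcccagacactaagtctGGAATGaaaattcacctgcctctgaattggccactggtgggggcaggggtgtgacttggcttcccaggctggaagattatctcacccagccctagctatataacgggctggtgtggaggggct
Amotl2: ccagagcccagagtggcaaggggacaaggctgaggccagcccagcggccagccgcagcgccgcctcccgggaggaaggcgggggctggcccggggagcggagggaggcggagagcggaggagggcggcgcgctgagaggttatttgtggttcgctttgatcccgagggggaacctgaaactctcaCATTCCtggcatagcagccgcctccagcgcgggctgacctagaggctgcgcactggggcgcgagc
Cyr61 held 1 match, starting 103 bases before the start site, Ankrd1 held 2, at 210 and 123 bases before it, and Amotl2 held 1, at 65 bases. Of 32536 promoter windows of the same length, 12.6% held at least 1 match on either strand and 1.0% held at least 2. The promoters of the coactivators held 1 match each as well, shown here with 12 bases on either side, at chr9:8004720-8004749 and chr3:57576029-57576058 (both minus strand).
Yap1: cgggagtctgcaGGAATGtagcgacgcgca
Wwtr1: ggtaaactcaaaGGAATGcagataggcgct
The promoter of Tead2 held 0 matches, and the 3 start sites listed for Tead3 held 1, 2 and 0. A match describes these letters only.

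The genes lie on separate parts of the genome (GRCm38, 1-based). Yap1 spans 7931999 to 8004596 on chromosome 9, where Amotl2 lies at 102716672 to 102733418. Wwtr1 is at 57455649 to 57575910 and Cyr61 at 145646976 to 145649981 on chromosome 3. Tead2 (45215753 to 45233644) and Tead1 (112679318 to 112906807) are on chromosome 7, Tead3 (28331671 to 28350817) on chromosome 17, Tead4 (128224288 to 128300823) on chromosome 6, Ctgf (24595442 to 24598683) on chromosome 10 and Ankrd1 (36111961 to 36120099) on chromosome 19. Counts covered whole genes, with exon sequence from 2019 bases (Cyr61) to 13570 bases (Tead1). Ctgf shares 665 exon bases with Gm15270, Yap1 shares 116 with Gm20416 and Tead2 shares 13 with Cd37, each on the other strand, and the strand setting of the counting is not known, so a part of these counts is uncertain.

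Each wild-type library held 31651625 to 37069334 gene counts and each Neat1 null library 19651035 to 38950207. Neat1 had 138, 588, 753 and 1320 CPM in wild-type libraries 1 to 4 (counts per 1000000, TMM-scaled), so that wild-type library 1 held the least. The Neat1 null libraries had 6.12 to 11.3 CPM, as the labels say. Neat1 null library 1 stood apart, with 25.4% of its counts on ribosomal protein genes (5.99% to 15.0% elsewhere) and 5.23% on the ribosomal RNA gene Rn45s (0.138% to 0.939% elsewhere). The change of log2 CPM per doubling of gene length, relative to the mean of all libraries, was between 0.138 and 0.248 for wild-type but between -0.482 and 0.00608 for Neat1 null libraries, lowest in Neat1 null libraries 3 and 1 (-0.317). Of the 8 fibroblast markers, vimentin (Vim, 1233 to 3263 CPM) and fibronectin (Fn1, 431 to 1389 CPM) were abundant, whereas the collagen gene Col1a1, a defining fibroblast gene, had only 1.29 to 12.4 CPM. The summed 5 epithelial markers had 194 to 633 CPM in wild-type but 250 to 3182 CPM in Neat1 null libraries, most of it from Krt18, which had 3144 CPM in Neat1 null library 1. The summed leukocyte markers had 9.15 to 102 CPM in wild-type against 4.13 to 18.4 CPM in Neat1 null libraries, nearly all from Cd68. Cd68 was the only 1 of these markers to pass the low-count filter, and it was called (log2 fold change -2.47, edgeR adjusted p = 0.0239). The defining leukocyte gene Ptprc was at 0 in all libraries. Endothelial markers summed to 0.359 to 9.90 CPM, of which Kdr reached 9.26 CPM, with Pecam1 at no more than 0.32 CPM. Muscle markers summed to 2.64 to 15.3 CPM, mostly Des, with Myod1 at 0, and neural markers to 69.4 to 557 CPM, mostly Nes. None of these 3 lists held a call, but only 2 of 4 endothelial and 1 of 4 muscle markers passed the low-count filter, against 4 of 4 neural markers.

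Yap1, the coactivator that gives the pathway its readout, had 225, 174, 191 and 206 CPM in wild-type libraries 1 to 4 and 143, 164, 80.1 and 165 CPM in Neat1 null libraries 1 to 4. The groups did not overlap, with the highest Neat1 null library just under the lowest wild-type one, and Neat1 null library 3 lay far below the rest. The means were 199 ± 21.5 and 138 ± 40.0 CPM (SD, n = 4 each) (log2 fold change -0.53, SE 0.35, 95% interval -1.26 to 0.21, edgeR adjusted p = 0.284). Wwtr1, which encodes the paralogous coactivator TAZ, had 147, 186, 178 and 212 CPM in wild-type and 74.7, 146, 78.1 and 106 CPM in Neat1 null libraries. Here too no Neat1 null library reached the lowest wild-type value, although wild-type library 1 and Neat1 null library 2 were nearly level. Its means were 181 ± 26.8 and 101 ± 32.8 CPM (log2 fold change -0.84, SE 0.35, 95% interval -1.57 to -0.10, unadjusted p = 0.0286 and adjusted p = 0.0987 in edgeR). These are the 2 of 10 genes whose groups did not overlap, both lower in Neat1 null. Over all genes tested 22.6% did not overlap, 11.0% with Neat1 null lower and 11.7% with Neat1 null higher, so a share of 20% among the members lies near the background.

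**Figure D1:**
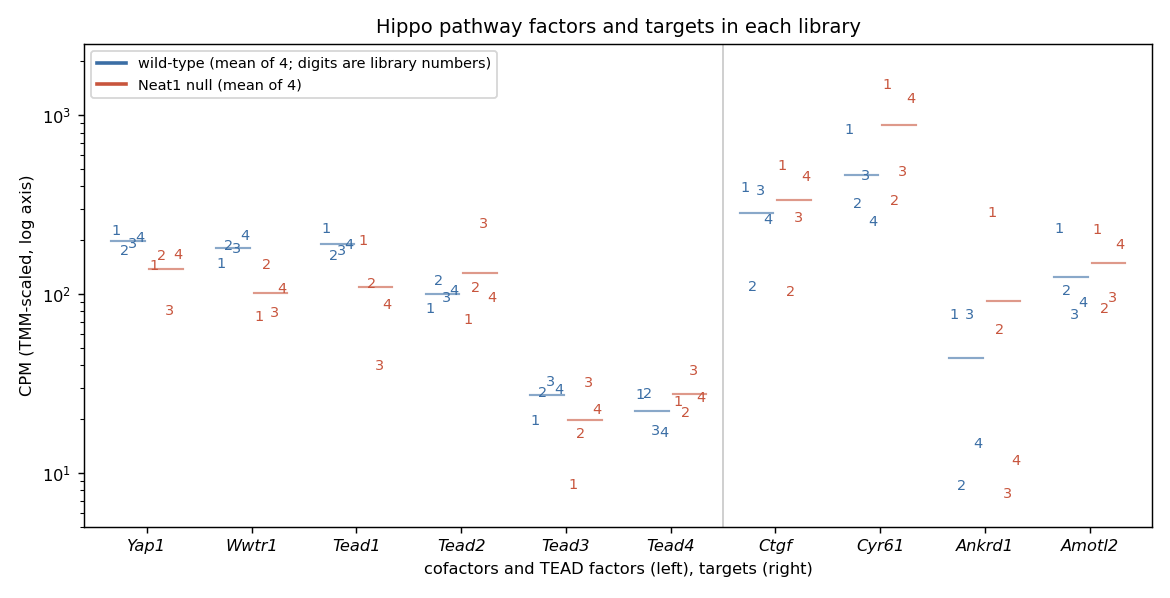
TMM-scaled CPM (log axis) of the 10 genes in the 8 libraries; digits are library numbers (blue wild-type, red Neat1 null) and lines are means of 4. Yap1 and Wwtr1 lay lower in all 4 Neat1 null libraries (2 of 10 genes without overlap, against 22.6% of all genes tested). The targets to the right of the grey line spread widely in both groups, with Ankrd1 between 7.58 and 284 CPM.

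The fold change of Yap1 depended on a joint correction for gene length and GC content, whose parts were not run separately. After each library was corrected for both, the log2 fold change of Yap1 (9257 exon bases) was 0.16 (adjusted p = 0.666), with the sign turned, and that of Wwtr1 (4779 exon bases) was -0.50 (adjusted p = 0.195). Without any 1 library, Yap1 stayed between -0.62 and -0.33 (the latter without Neat1 null library 3) and Wwtr1 between -1.05 and -0.72, and neither was called. Scaling of a library barely moves the ratio of Wwtr1 to Yap1 within it, but a length trend can. On the log2 scale (CPM + 1) this ratio was -0.14 ± 0.32 for wild-type and -0.44 ± 0.41 for Neat1 null libraries. This ratio differed by less than the spread between libraries (difference -0.30, exact 2-sided permutation p = 0.229, adjusted 0.229 over 3 ratios, where the smallest possible p is 0.0286).

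The 4 Tead genes encode the factors that bring YAP and TAZ to DNA, with near-identical DNA-binding domains and overlapping roles. Tead1 had 231, 163, 174 and 188 CPM in wild-type and 199, 114, 39.6 and 86.9 CPM in Neat1 null libraries. Neat1 null library 1 lay inside the wild-type range and the other 3 Neat1 null libraries below it, with library 3 the lowest. The log2 fold change was -0.79 (SE 0.43, 95% interval -1.70 to 0.13, adjusted p = 0.200, edgeR). Without Neat1 null library 1 it was -1.23 (adjusted p = 0.0548), without Neat1 null library 3 -0.50 (adjusted p = 0.336), and with the length and GC correction 0.02 (adjusted p = 0.978). Tead1 has the most exon sequence of the 10 genes.

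Tead2, the family member best known from early embryonic cells, had 82.1, 119, 95.3 and 104 CPM in wild-type and 71.2, 108, 248 and 95.2 CPM in Neat1 null libraries. Neat1 null library 3 held more than any other library, and the rest of both groups lay together. Its log2 fold change was 0.38 (SE 0.40, 95% interval -0.47 to 1.24, adjusted p = 0.507) and turned to -0.12 without Neat1 null library 3. Tead3 had 19.5, 28.0, 32.4 and 29.1 CPM against 8.53, 16.5, 31.8 and 22.6 CPM, and Tead4 had 27.4, 27.6, 17.2 and 16.7 CPM against 25.0, 21.7, 37.2 and 26.3 CPM in the same order. Both overlapped fully or in part between the groups, with log2 fold changes of -0.45 (SE 0.40, adjusted p = 0.425) for Tead3 and 0.31 (SE 0.34, adjusted p = 0.534) for Tead4. Tead3 was -0.21 without Neat1 null library 1 and -0.76 without library 3, and Tead4 was 0.14 without Neat1 null library 3. The value of Tead3 in Neat1 null library 1 rests on 95 counts, the fewest of any of the 10 genes in any library.

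Levels of the Tead genes were compared with each other per length, as CPM per kilobase of exon sequence. Exon sequence is the union of all annotated exons of a gene, which can be longer than the transcript expressed. Before this division the wild-type means were 189 CPM for Tead1 and 100 CPM for Tead2, so the order of the 2 genes rests on it. In wild-type libraries Tead2 had 20.9 ± 3.23, Tead1 13.9 ± 2.19, Tead4 6.18 ± 1.69 and Tead3 4.06 ± 0.82. Tead2 and Tead1 did not differ in wild-type library 1 (17.1 and 17.0 CPM per kilobase), and Tead4 and Tead3 overlapped. Of the summed Tead level, Tead1 made up 38.1%, 24.7%, 30.3% and 31.2% in wild-type libraries and 38.9%, 21.3%, 4.19% and 17.3% in Neat1 null libraries 1 to 4. Tead2 made up 38.4% to 51.0% in wild-type libraries and 39.4%, 57.2%, 74.2% and 53.8% in Neat1 null libraries. In Neat1 null library 3 nearly all of the Tead1 share was missing and Tead2 was the main member, whereas Neat1 null library 1 had nearly the composition of wild-type library 1. The log2 ratio of Tead2 to Tead1 was -0.91 ± 0.42 for wild-type and 0.30 ± 1.70 for Neat1 null libraries, a difference of 1.21 that did not exceed the spread (exact permutation p = 0.229, adjusted 0.229). Without Neat1 null library 3 the difference was 0.44. Without Neat1 null library 1 it was 1.803 with groups that did not overlap (unadjusted exact permutation p = 0.0286, the smallest possible with 4 libraries against 3). Tead1 has 13570 exon bases and Tead2 4788, so a library's length trend enters this ratio and the shares. Division by exon length does not remove that trend. With the joint length and GC correction the log2 fold changes were 0.02 for Tead1 and 0.20 for Tead2, and the ratio was not recomputed.

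**Figure D2:**
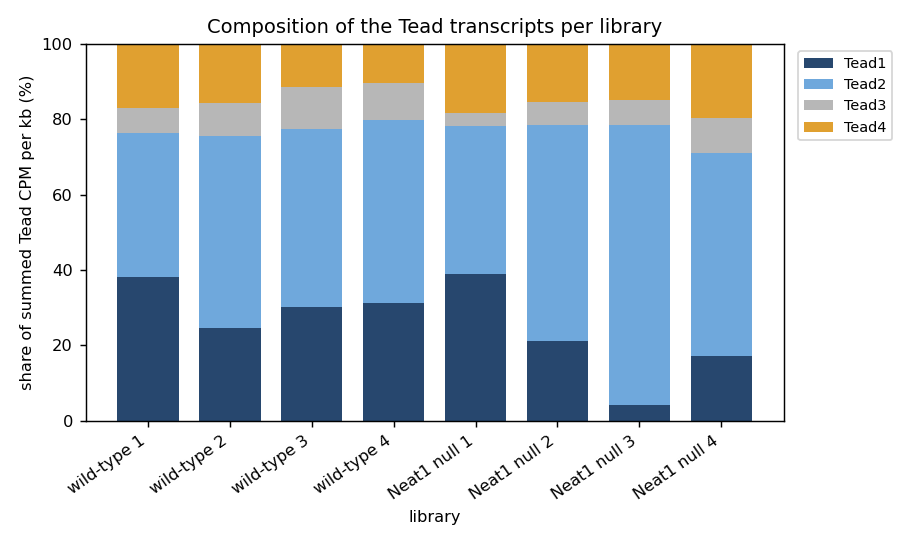
Share of each Tead gene in the summed Tead level (CPM per kilobase of exon sequence, in percent) for the 8 libraries. Tead1 made up 4.19% of the sum in Neat1 null library 3, where Tead2 made up 74.2%. Tead2 was the largest share in all 8 libraries, but nearly level with Tead1 in library 1 of both groups (38.4% and 38.1% in wild-type, 39.4% and 38.9% in Neat1 null). The shares were not corrected for the length trend of each library.

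Cyr61 and Ctgf, secreted matricellular proteins of the CCN family and the most used YAP/TAZ readouts, were the most abundant of the 10 genes. Cyr61 had 825, 317, 455 and 254 CPM in wild-type and 1477, 333, 483 and 1234 CPM in Neat1 null libraries. Neat1 null libraries 1 and 4 lay above all others, while Neat1 null libraries 2 and 3 lay inside the wild-type range. The means were 463 ± 256 and 882 ± 559 CPM (log2 fold change 0.93, SE 0.53, 95% interval -0.20 to 2.06, edgeR adjusted p = 0.218). It was 0.57 (adjusted p = 0.423) without Neat1 null library 1 and 1.38 (adjusted p = 0.0902) without wild-type library 1. Corrected for length and GC content it was 0.43 (adjusted p = 0.596).

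Ctgf had 389, 109, 378 and 259 CPM in wild-type and 522, 102, 267 and 452 CPM in Neat1 null libraries. The lowest library of each genotype, number 2 in both, held about the same amount, and the groups overlapped over nearly their whole range. Its log2 fold change was 0.24 (SE 0.51, 95% interval -0.84 to 1.32, adjusted p = 0.754), and it was -0.02 without wild-type library 2 and -0.05 without Neat1 null library 1. The log2 ratio of Ctgf to Cyr61 was -0.71 ± 0.72 for wild-type and -1.37 ± 0.36 for Neat1 null libraries, a difference of -0.66 within the spread (exact permutation p = 0.229, adjusted 0.229).

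Ankrd1, an ankyrin-repeat protein of muscle and stretched fibroblasts, varied most. It had 76.5, 8.51, 76.7 and 14.5 CPM in wild-type and 284, 62.9, 7.58 and 11.7 CPM in Neat1 null libraries. Within wild-type the highest library held 9.01 times the lowest, and within Neat1 null 37.4 times. The log2 fold change of 1.05 (SE 1.23, 95% interval -1.80 to 3.90, adjusted p = 0.569) rested on Neat1 null library 1 and was -0.67 without it. Amotl2, an angiomotin that binds YAP and is itself a YAP target, had 232, 103, 76.7 and 88.8 CPM in wild-type and 227, 82.6, 94.5 and 189 CPM in Neat1 null libraries. Wild-type library 1 and Neat1 null library 1 were level, and the log2 fold change was 0.24 (SE 0.45, adjusted p = 0.716) or -0.02 without Neat1 null library 1.

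**Figure D3:**
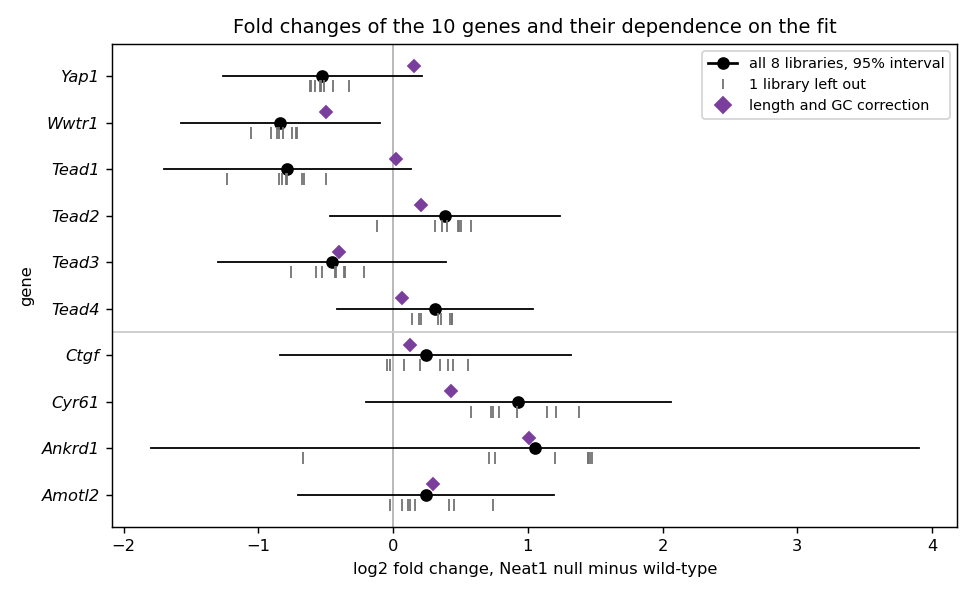
Log2 fold change (Neat1 null minus wild-type) of the 10 genes with all 8 libraries (black, with unadjusted 95% intervals), with 1 library left out (grey ticks) and after the length and GC correction (purple). Yap1 and Tead1 moved from -0.53 and -0.79 to 0.16 and 0.02 with the correction, and the interval of Ankrd1 ran from -1.80 to 3.90.

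Ctgf, Cyr61 and Amotl2 had the same 3 libraries at the top, Neat1 null libraries 1 and 4 and wild-type library 1, and these libraries are of both genotypes. Library 1 of Neat1 null was the highest for Cyr61, Ctgf and Ankrd1 and the second highest for Amotl2. The root mean square difference between 2 genes, taken over 8 libraries on log2(CPM + 0.5) centred on each gene's mean, was 0.45 for Cyr61 and Amotl2, 0.59 for Cyr61 and Ctgf and 0.67 for Ctgf and Amotl2. Between Cyr61 and the other three targets it was highest with Ankrd1, at 1.57. Among the factors it was lowest for Yap1 and Wwtr1, at 0.35, and Yap1 and Cyr61 were 1.02 apart. All values of a library share its depth and length trend, and this likeness is a description of 8 libraries.

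**Figure D4:**
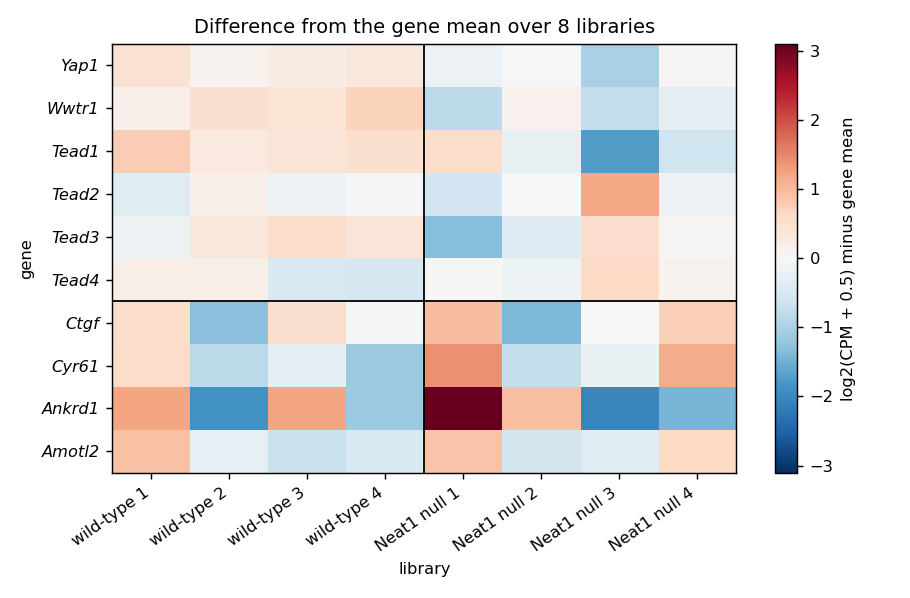
Log2(CPM + 0.5) of each gene minus its mean over the 8 libraries (red above, blue below the mean), with wild-type libraries left of the vertical line and targets below the horizontal line. Ctgf, Cyr61 and Amotl2 were all above their means in wild-type library 1 and in Neat1 null libraries 1 and 4, while Yap1 and Wwtr1 were above theirs in all 4 wild-type libraries.

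The split of the variance puts numbers to this. The difference between the groups held 67.5% of the variance of Wwtr1 over the 8 libraries, 45.1% of that of Yap1 and 40.3% of that of Tead1. The median over all genes tested was 32.6%. The split used values without the length and GC correction, so the length trend, which differed between the groups, enters these shares. For the targets the difference between the groups held 21.5% (Cyr61), 4.16% (Amotl2), 0.884% (Ctgf) and 0.665% (Ankrd1). The pooled SD within groups, on the log2 scale, was 2.02 for Ankrd1, 0.963 for Ctgf, 0.902 for Cyr61 and 0.716 for Amotl2, with a median of 0.551 over all genes. Only 0.270% of genes had a larger one than Ankrd1, 7.25% a larger one than Ctgf and 9.57% a larger one than Cyr61, whereas 83.9% exceeded Yap1 (0.366) and 85.8% exceeded Wwtr1 (0.350). The coactivators thus had small spreads and the targets large ones within the same libraries.

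Per length, the order of the mean levels over the 8 libraries was Cyr61 (333 CPM per kilobase), Ctgf (108), Wwtr1 (29.5), Tead2 (24.1), Ankrd1 (23.5), Amotl2 (21.8), Yap1 (18.2), Tead1 (11.0), Tead4 (6.92) and Tead3 (3.51). Cyr61 exceeded Ctgf in each of the 8 libraries (from 126 against 90.4 CPM per kilobase in wild-type library 4 to 732 against 182 in Neat1 null library 1). From Wwtr1 to Yap1 neighbours overlapped over libraries. In wild-type libraries Wwtr1 (37.8 ± 5.61) exceeded Yap1 (21.5 ± 2.33) without overlap, and in Neat1 null libraries the 2 genes overlapped (21.2 ± 6.87 and 14.9 ± 4.32).

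Of 11796 other genes whose log2 CPM averaged 1 or more, those most like Yap1 over the 8 libraries were the kinase gene Tbk1 (root mean square difference 0.0774), the interferon gamma receptor gene Ifngr1 (0.105) and Fip1l1 (0.120), against a median of 0.713. For Ctgf they were Fscn1 (0.393), Necab2 (0.456) and 5830416P10Rik (0.485), against a median of 1.05. The nearest genes to Ctgf were thus further away than those to Yap1.

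The regulators that act on YAP and TAZ were taken as a list of 30 genes. It holds the kinases and their scaffolds, junction and cadherin inputs, and inhibitors of YAP or TEAD. It also holds genes that oppose the kinases: the LIM protein genes Ajuba, Limd1 and Wtip and the striatin genes Strn, Strn3 and Strn4. Counts and medians of this mixed list therefore give no direction of pathway activity. All 30 were tested, and 3 were called lower in Neat1 null libraries and 0 higher (background 7.72% lower and 9.97% higher). A log2 fold change below 0 was found for 24 of the 30 and for 6949 of all 13316 genes tested. The median was -0.44 against -0.06 for all genes. The core kinases did not pass: Stk3 (MST2) had a log2 fold change of -0.50, Stk4 (MST1) 0.54, Lats1 -0.74 and Lats2 -0.57, with adjusted p-values from 0.200 to 0.379 in edgeR. The scaffold Sav1 (-0.11) and the tumour suppressor Nf2 (-0.18) did not pass either. Fat4, a giant cadherin that receives planar signals, had 1.75, 1.04, 3.36 and 3.17 CPM in wild-type libraries and fell to 0.269, 0.323, 0.212 and 0.847 CPM in Neat1 null ones, where it had only 3 to 27 counts (log2 fold change -2.45, SE 0.65, edgeR adjusted p = 0.0236). Its ligand Dchs1 had 24.9, 12.7, 74.6 and 48.7 CPM in wild-type and 15.6, 8.21, 19.8 and 12.9 CPM in Neat1 null libraries. It passed (log2 fold change -1.51, SE 0.49, adjusted p = 0.0443) although its groups overlapped. The angiomotin gene Amot, whose protein retains YAP at junctions, had 53.3, 59.8, 49.2 and 60.1 CPM in wild-type and 34.0, 26.9, 10.9 and 22.5 CPM in Neat1 null libraries. Its groups stood well apart (log2 fold change -1.24, SE 0.37, adjusted p = 0.0330).

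These 3 calls depended on single libraries and on the joint length and GC correction. Without library 3 or 4 of the wild type or library 3 of Neat1 null, 0 of the 30 genes passed. The edgeR adjusted p-values of Fat4, Amot and Dchs1 were then from 0.0658 to 0.195, and their log2 fold changes from -2.27 to -0.99. Few genes of any kind passed in these fits. In the same order, the counts were 2 higher and 16 lower of 13372, 1 and 10 of 13409, and 7 and 6 of 13686. Leaving out library 2 of the wild type (adjusted p = 0.0629) or library 4 of Neat1 null (0.0671) also ended the call of Amot, and that of Dchs1 was lost without Neat1 null library 1 (0.0670), 2 (0.0839) or 4 (0.0765). Without Neat1 null library 4 the count was 1 (Fat4, with a log2 fold change of -3.10), and without Neat1 null library 3 the values of Amot and Dchs1 were -0.99 and -1.70. After the length and GC correction 0 of the 30 passed, against 12.3% of all genes. Then 17 of the 30 were below 0 with a median of -0.02, against 6046 of 13316 genes and a median of 0.0951 over all genes. Fat4 was at -1.74 (edgeR adjusted p = 0.0597), Amot at -0.68 (0.114) and Dchs1 at -1.09 (0.104). Without Neat1 null libraries 1 and 3, a setting chosen after the data were seen, 0 passed as well. There, 5 higher and 2 lower of 14097 genes passed.

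The other target list held 18 genes of a YAP/TAZ target signature of 22 genes, whose remaining 4 are Ctgf, Cyr61, Ankrd1 and Amotl2. Of these 18, 4 were called lower and 0 higher (background 7.72% lower and 9.97% higher). All 18 had a log2 fold change below 0, as did 6949 of all 13316 genes tested, and the median was -0.80 against -0.06. The groups did not overlap for 7 of the 18, each time with Neat1 null lower (38.9%, against 11.0% of all genes lower and 22.6% in either direction). Nt5e, the ecto-5′-nucleotidase CD73, had 8.35, 25.6, 52.5 and 47.7 CPM in wild-type and 2.34, 4.49, 3.03 and 2.60 CPM in Neat1 null libraries (log2 fold change -3.42, SE 0.53, edgeR adjusted p = 0.0143). Gadd45a, a growth arrest gene that p53 also induces, had 6.31, 26.1, 31.7 and 40.4 CPM against 3.05, 5.93, 3.03 and 4.90 CPM (log2 fold change -2.62, SE 0.51, adjusted p = 0.0180). In both genes wild-type library 1 lay much nearer to the Neat1 null libraries than the other 3 wild-type libraries did.

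F3, the tissue factor that starts blood clotting, had 25.6, 36.7, 30.2 and 44.6 CPM in wild-type and 17.2, 21.0, 7.83 and 10.2 CPM in Neat1 null libraries (log2 fold change -1.29, SE 0.38, adjusted p = 0.0344). Myof, a ferlin of membrane repair, had 517, 562, 621 and 766 CPM against 202, 378, 101 and 309 CPM (-1.31, SE 0.43, adjusted p = 0.0474). Both fell in each Neat1 null library below the lowest wild-type library. Lats2 and Ptpn14 stand in both lists, as targets that also restrain YAP, and had log2 fold changes of -0.57 (adjusted p = 0.284) and -0.78 (adjusted p = 0.134).

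The calls in this list also depended on single libraries, as did those over all genes. Over all genes, 18 passed when library 3 of the wild type was dropped and 11 when library 4 was. With library 3 of Neat1 null dropped, 13 passed, against 2356 with all 8 libraries. In these fits the 4 genes had log2 fold changes from -3.38 to -1.04, against -3.42 to -1.29 with all 8 libraries. Without wild-type library 3 or wild-type library 4, 1 gene passed (Nt5e, adjusted p = 0.0393 and 0.0300), without Neat1 null library 3, 0 passed (adjusted p = 0.0646 to 0.0869 for the 4 genes), and without Neat1 null library 4, 2 passed (Nt5e at 0.0108 and Gadd45a at 0.0116) while F3 (0.0849) and Myof (0.0611) did not. The call of F3 ended without library 2 of the wild type (0.0645), and that of Myof without library 1 (0.05001) or 2 (0.0757) of the wild type or library 1 of Neat1 null (0.0768). After the length and GC correction Nt5e (-2.84), Gadd45a (-3.02) and F3 (-1.37) passed, each at an edgeR adjusted p of 0.0351, and Myof did not (-0.70, adjusted p = 0.139). Over all genes 4.68% were then called lower. Of the 18, 16 stayed below 0 with a median of -0.42, against 6046 of 13316 genes and a median of 0.0951 over all genes. The 4 targets of the signature among the 10 genes all had log2 fold changes above 0, and the 18 others all below 0, in the same comparison. Without Neat1 null library 1, 3 of the 4 targets were below 0 (median -0.04), and without wild-type library 1, 16 of the 18 others were. The values of both sets come from the same libraries, and the difference between the sets was not tested. Of the cell type markers, Pdgfra, the only 1 of 8 fibroblast markers called, had 40.9 to 148 CPM in wild-type but 3.92 to 10.9 CPM in Neat1 null libraries, and the leukocyte marker Cd68 was called lower as well. The summed fibroblast markers overlapped (1826 to 3399 CPM against 2587 to 4031 CPM), Vim (0.38) and Fn1 (0.29) had log2 fold changes above 0, and 0 of 5 epithelial markers were called (Krt18 1.85, adjusted p = 0.105). The part of these markers in the results was not tested, and in bulk RNA fewer cells of a kind and less RNA per cell cannot be told apart.

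**Figure D5:**
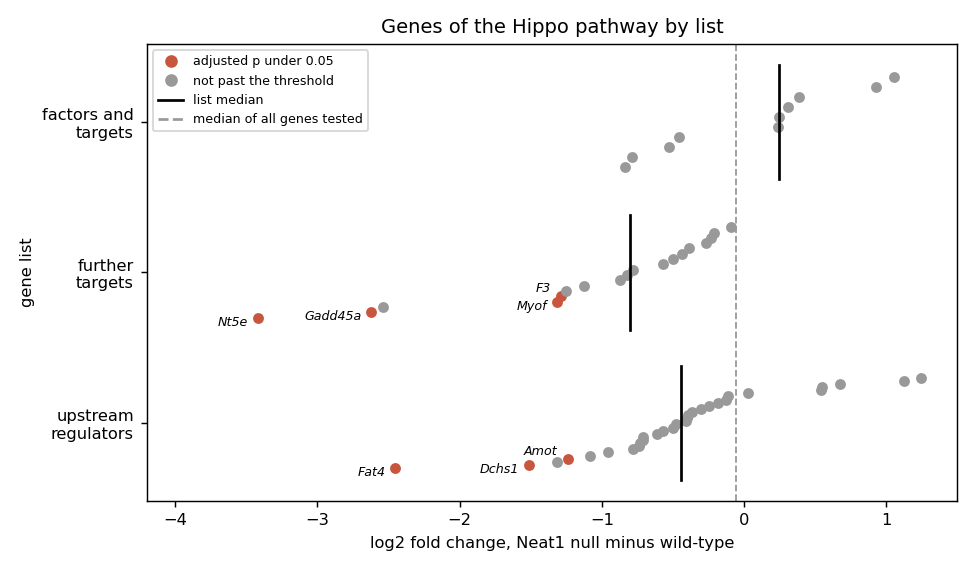
Log2 fold changes (Neat1 null minus wild-type) of the 10 genes, the 18 further targets and the 30 upstream regulators; red points passed an adjusted p of 0.05, black bars are list medians and the dashed line is the median of all genes (-0.06). The list medians were 0.24, -0.80 and -0.44, and the 7 red points all lie below 0.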

How the data were processed

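RNA-seq read counts of 8 libraries were analysed. The files deposited by the authors hold raw counts, 1 per gene symbol, with no header; the submitters' processing notes list STAR, DESeq2, CASAVA 1.8 and the build mm10 without roles. The labels' protocols give a stranded TruSeq kit. The tool that counted reads, whether it used strand and the annotation are not given in the sources used here. Reads outside genes (5.48% to 15.7% of a library) and ambiguous reads (1.09% to 1.76%) entered neither library sizes nor tests.

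Genes were kept with filterByExpr (minimum count 10), scaled with TMM factors and tested with edgeR 4.0.16 in R 4.3.3 (quasi-likelihood F test, robust, 2-sided, genotype as the only term), adjusted by the Benjamini-Hochberg method over 13316 genes at a threshold of 0.05. Differences are Neat1 null minus wild-type on the log2 scale, and the SE is the size divided by the square root of F. CPM were computed with the TMM factors. Exon lengths, positions and GC contents came from GENCODE M21 (GRCm38, the assembly of mm10) for 98.4% of symbols; the length and GC correction added per-library splines (5 degrees of freedom) as offsets. Within-library ratios used exact permutation tests over 70 assignments. DESeq2 was version 1.42.0.

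The members, gene lists and tests were chosen with earlier results of these data known. Genes named are the 10 members, Neat1, up to 5 called genes per direction of each list and the 3 genes most like Yap1, Ctgf and Cyr61 (those of Cyr61 are not reported here); others, such as core kinases and markers, are named to describe a list. No pair of libraries of 1 genotype was alike within sampling noise (lowest chi-square over degrees of freedom 62.1). On simulated counts (13219 genes tested, 50 changed at each fold) the fit recovered 10% of genes changed 2-fold, 82% changed 4-fold and 98% changed 8-fold. There 153 genes were called, against 2356 in the data, so the p-value needed to pass was smaller in the simulation. The shares recovered may therefore differ in the data.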

Additional observations from a re-analysis of the deposited data

How the results depend on the processing

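Of the 10 genes, 0 were called under each of the 16 alternatives run. The count over all genes was 7 without Neat1 null libraries 1 and 3, 3559 in DESeq2, and 11 to 2965 with 1 library left out. Upper-quartile scaling gave 1036 higher and 1428 lower, against 1328 and 1028, and moved the median of all genes from -0.06 to -0.24, yet turned no sign among the 10 genes. The upstream list had 0 calls with the length and GC correction, 0 without Neat1 null libraries 1 and 3, and 0 to 4 with 1 library left out; the further targets had 0 and 0 to 6 in the last 2 settings. The median of the 10 genes was -0.14 without Neat1 null libraries 1 and 3, where Ctgf was -0.0555 and Ankrd1 -0.23, and ran from -0.13 to 0.43 with 1 library left out. In the latter setting Tead2 ran from -0.12 to 0.58, Ctgf from -0.0482 to 0.55, Ankrd1 from -0.67 to 1.47, Amotl2 from -0.0245 to 0.74 and the log2 ratio of Tead2 to Tead1 from 0.44 to 1.803. Corrected for length and GC content, Yap1 was 0.16 and Tead1 0.0185. The cause was not tested. Of the calls named, Dchs1 (adjusted p = 0.0548) and Myof (0.0510) were lost with DESeq2's size factors in edgeR, and Myof (0.0519) without the low-count filter.

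The labels number the libraries 1 to 4 in both groups, but same-numbered libraries deviated with correlations of 0.319, -0.252, -0.0112 and 0.116, so the numbers share no source known here. With a replicate block, 2245 genes were called (1093 higher, 1152 lower), 0 of the 10 genes and 5 of the upstream list (4 lower, 1 higher). In that list 1 gene was also called higher in each of 3 other settings: in DESeq2, without wild-type library 1, and without Neat1 null library 2. The paired exact p of the ratios was 0.25 (Wwtr1 to Yap1), 0.125 (Tead2 to Tead1) and 0.125 (Ctgf to Cyr61), the last 2 being the smallest possible with 4 pairs. With 4 libraries a group, the fit recovered few 2-fold changes in simulated counts (10%), where fewer genes were called and the threshold was stricter than in the data. Fat4 rests on as few as 3 counts in a library.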

Other observations

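Among the LIM proteins that bind LATS kinases, Ajuba had 54.8, 27.6, 28.9 and 14.8 CPM in wild-type and 113, 32.6, 96.5 and 57.5 CPM in Neat1 null libraries, without passing the test (log2 fold change 1.25, SE 0.45, edgeR adjusted p = 0.0674). Wtip was higher in each Neat1 null library (51.0 to 102 CPM) than in any wild-type library (36.5 to 49.4 CPM), also without passing (0.68, adjusted p = 0.160), while Limd1 overlapped (0.03, adjusted p = 0.959). Amotl1, a relative of Amotl2, had 170, 255, 264 and 210 CPM in wild-type against 157, 118, 49.2 and 139 CPM in Neat1 null libraries, with groups that did not overlap (-0.96, adjusted p = 0.0968). In the upstream list 5 of 30 genes had groups that did not overlap (16.7%, 4 lower and 1 higher), against 22.6% of all genes tested. The 4 genes of this paragraph were picked after their values were seen.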
